A study of Mus musculus with 16 samples.

Results

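The genes described here are the receptor tyrosine kinases Tek (Tie2) and Tie1, their ligand gene Angpt1, and 5 other genes shared by vessels and blood stem cells: Kdr, Eng, Esam, Emcn and Cdh5. These 8 genes, of 47937 in the count tables, were listed by name, and the list was chosen by a measured value: the Tek level in MPP4 of labelled KO mice had been seen to be higher in these data, and the question was whether Tek moved alone. The Tek values of that contrast, of MPP3 against MPP4 (WT as well as KO), and of the difference between the KO effects are therefore given as a description, with no test, since all of these use MPP4 libraries of that contrast.

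Angiopoietin 1, the product of Angpt1, binds TIE2 and switches its kinase on, and TIE1 pairs with TIE2 at the cell surface and modulates its signal. In blood vessels this pathway keeps endothelium quiescent, and in bone marrow TIE2 is known as a receptor of long-term haematopoietic stem cells. Kdr encodes VEGF receptor 2, Eng the TGF-beta and BMP co-receptor endoglin, Esam an adhesion molecule of tight junctions, Emcn the sialomucin endomucin, and Cdh5 the VE-cadherin of endothelial junctions. Endoglin, ESAM and endomucin have all been used to sort stem cells. Tek has a particular place in this study because its promoter drives the Cre recombinase of Tie2Cre mice, which is active in endothelium and in adult haematopoietic stem cells.

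Bulk RNA-seq of polyA RNA was available for 16 libraries from the bone marrow of 8 C57BL/6 mice. The labels pair an MPP3 and an MPP4 library to each mouse. Both are populations of multipotent progenitors, MPP3 leaning to the myeloid and MPP4 to the lymphoid side. Per the labels, both were gated as LSK CD150- CD48+ cells and MPP4 also as Flt3+, so the stated MPP3 gate does not exclude Flt3+ cells. The labels give the 4 WT mice as Ebf1fl/fl Tie2Cre+/+ (11 to 12 weeks old) and the 4 KO mice as Ebf1fl/fl Tie2Cre +/cre (9 to 11 weeks old), with 2 females and 2 males in each. The design text of the series instead assigns Tie2Cre to both genotypes and Ebf1-wt alleles to the controls. Read counts of Tek cannot settle this, and reads of the endogenous gene and any transgene reads that map to Tek cannot be told apart. Tie2Cre is not specific to MPPs: cells of the vessel wall and every blood cell descended from a recombined stem cell would carry the deletion too.

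Libraries held between 24823708 and 48703193 counts, and a count of 3, the limit that a count of 0 allows, corresponded to 0.0619 to 0.118 CPM (counts scaled to the normalised library size) after TMM normalisation. Such limits cover counting error only, since reads carried no molecular identifiers. The targeted gene, Ebf1, was higher in the MPP4 libraries labelled KO, and in MPP3 its ranges overlapped. In MPP4 it lay between 17.6 and 24.9 CPM in the libraries labelled KO and between 3.32 and 6.19 CPM in those labelled WT. In MPP3 it lay between 0.151 and 2.23 CPM in labelled KO and between 0.150 and 2.19 CPM in labelled WT libraries. The MPP3 means were 0.795 ± 0.977 CPM and 1.31 ± 0.989 CPM (SD, n = 4). These counts are over the whole gene and can include exons outside the floxed part, so they do not check the deletion. Cd79a, which encodes a B cell receptor subunit, was lower in every library labelled KO, at 0.0262 to 0.663 CPM against 1.75 to 3.47 CPM in MPP3 and at 0 to 0.963 CPM against 1.59 to 7.30 CPM in MPP4, and was named after its values were seen. WT and KO below mean libraries labelled so. Flt3 separated the populations, with 1229 ± 92.1 CPM in WT MPP4 and 281 ± 25.3 CPM in WT MPP3 (SD, n = 4).

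Markers of endothelial cells were looked at first, since vessels express most of these genes. Of 18 endothelial markers other than the 8 genes, 13 stayed under the count filter used for testing. Mmrn2 was at 0 in every library, Sox17 did not exceed 2 counts, Ptprb 1 count, Lyve1 12 counts and Cldn5 39 counts. Sox18 reached 65 counts, Stab2 100 and Vwf 121. Plvap held 65 to 269 counts. In MPP3 its KO libraries (5.81 to 7.04 CPM) lay above those of WT (3.01 to 5.32 CPM). The share of all genes with such a separation in MPP3 is not given here. In MPP4 Plvap overlapped, at 1.53 to 6.33 CPM in WT and 2.66 to 4.74 CPM in KO. Kdr and Cdh5, themselves defining genes of endothelium, held between 0 and 23 and between 0 and 12 counts per library. The summed level of the list came mostly from Egfl7 and Pecam1, which blood progenitors also express, and ranged from 325 to 352 CPM in MPP3 WT, 320 to 382 CPM in MPP3 KO, 523 to 620 CPM in MPP4 WT and 520 to 689 CPM in MPP4 KO. The ranges of this sum overlapped between WT and KO in both populations. Of the 5 genes of the list that could be tested, 0 were called between genotypes in either population. Of all genes, edgeR called 0.0169% in MPP4 and 0.0676% in MPP3, and DESeq2 2.58% and 1.82%. At an unadjusted p under 0.05 in edgeR there were 0 of the 5, where 12.8% of all genes reached that level in MPP4 and 10.5% in MPP3, so the count for 5 genes is near the background.

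Tek (ENSMUSG00000006386) lies on chromosome 4 of mm10 at 94739289 to 94874976 on the plus strand, and no other annotated gene overlaps it. The window of 250 bases before its start site is printed here because the promoter of Tek is also the one that drives the Cre. It covers chr4:94739039-94739288 on the plus strand of GRCm38.p6, as given by RefSeq, and capitals mark the ETS core GGAA or its reverse complement TTCC.
Tek: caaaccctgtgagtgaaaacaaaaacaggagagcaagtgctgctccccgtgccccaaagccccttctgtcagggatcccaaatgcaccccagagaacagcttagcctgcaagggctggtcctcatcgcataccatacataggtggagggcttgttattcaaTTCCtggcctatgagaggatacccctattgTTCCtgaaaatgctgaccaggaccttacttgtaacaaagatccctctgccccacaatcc
The ETS family holds many of the factors known to drive vascular and blood genes. GATA and TCCCNNGGGA, the palindrome bound by EBF proteins, were searched as well, each on both strands. The Tek window held 2 ETS cores, starting 89 and 59 bases before the start site, and 1 GATA. It held 0 matches to TCCCNNGGGA, which was present in 0.779% of the 32851 RefSeq windows of this length. ETS cores and GATA were present in 93.4% and 53.6% of those windows. RefSeq windows were matched for 5 of the 8 genes, and in the other 4 (Tie1, Kdr, Eng and Emcn) the ETS core occurred 7, 4, 3 and 4 times and TCCCNNGGGA 0 times. Angpt1, Esam and Cdh5 had no entry.

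Of the 8 genes, 6 passed the filter of a mean above 100 counts in any group. Per kilobase of exon, the levels in WT MPP3 fell in the order Angpt1 (70.4 ± 6.17 CPM per kb), Eng (51.9 ± 9.98), Esam (17.6 ± 5.53), Tie1 (14.4 ± 2.82), Emcn (5.70 ± 0.759) and Tek (5.27 ± 1.78). The intervals of 1 SD of Esam and Tie1, and of Emcn and Tek, overlapped. In WT MPP4 the order was Eng (41.2 ± 1.94 CPM per kb), Angpt1 (36.8 ± 0.861), Emcn (5.79 ± 0.279), Tie1 (4.94 ± 0.957), Esam (3.08 ± 0.477) and Tek (0.742 ± 0.406). Tek was thus the lowest of the 6 in both WT groups, and in MPP4 KO it came to 2.73 ± 0.482 CPM per kb beside 2.64 ± 0.677 for Esam. Kdr and Cdh5 did not exceed 0.045 CPM per kb as a mean of any group.

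Tek stood at 31.0, 33.0, 18.7 and 16.6 normalised CPM in the MPP3 libraries of WT mice 1 to 4, and at 24.5, 20.8, 28.5 and 32.2 CPM in those of KO mice 1 to 4. The MPP3 groups overlapped throughout their range. In MPP4 it stood at 5.003, 5.28, 2.08 and 1.62 CPM in WT mice 1 to 4 (212, 156, 101 and 69 counts). In MPP4 of KO mice 1 to 4 it stood at 14.1, 13.9, 9.45 and 14.02 CPM (488, 518, 255 and 511 counts). The lowest MPP4 KO library was 1.79 times the highest MPP4 WT library, and the highest MPP4 KO library reached 0.848 of the lowest MPP3 WT library, so MPP4 KO lay between WT MPP4 and MPP3 without touching either. The fitted log2 fold change of KO against WT in MPP4 was 1.89 ± 0.34 (SE), a 3.71-fold higher level. In bulk RNA, more Tek in each cell and more cells with Tek cannot be told apart. Among the 11831 genes tested, 8 had a larger log2 fold change in that contrast, 3 of them with groups that did not overlap, and 57 exceeded 1. Groups that did not overlap, with KO higher, were found for 2.83% of all genes in MPP4.

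**Figure D1:**
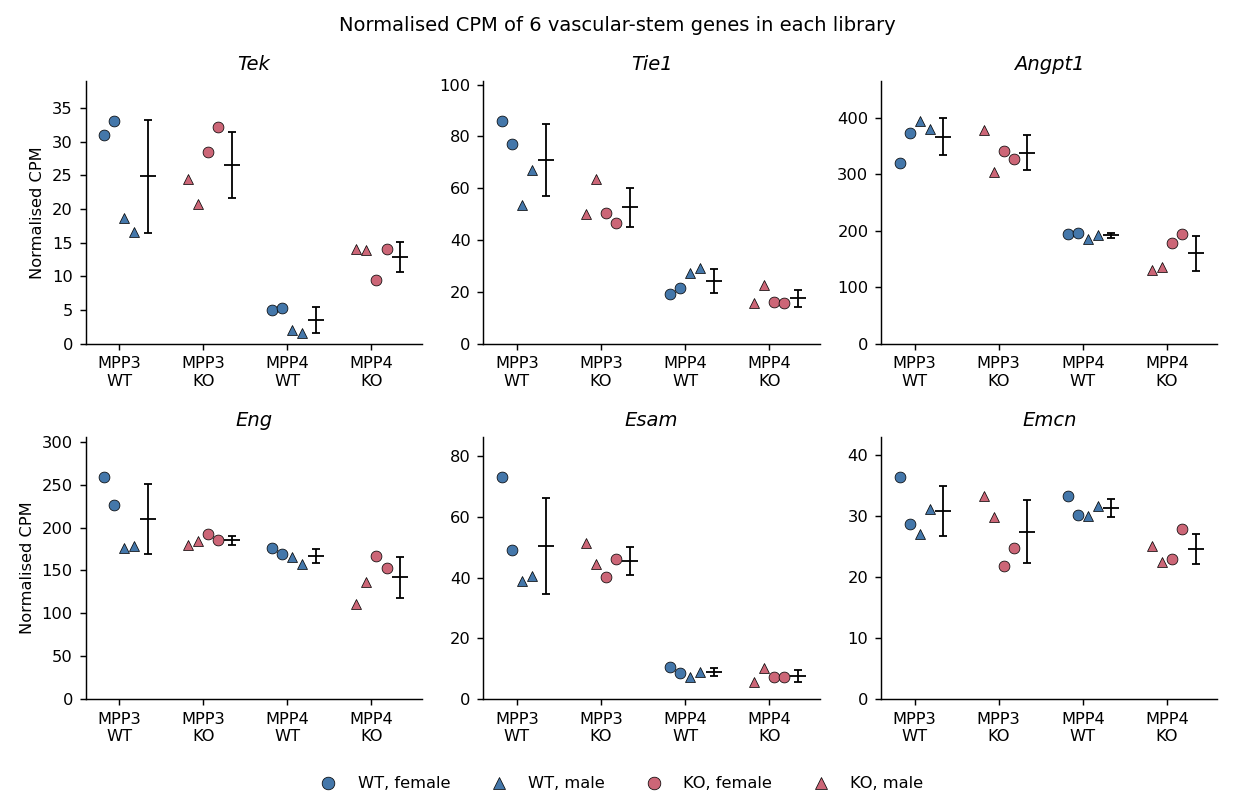
Normalised CPM (y axis, from 0) of the 6 genes that passed the filter, in each of the 16 libraries by group (x axis), with circles for females, triangles for males and bars for the mean ± SD of 4 libraries. The 4 Tek values of MPP4 KO (9.45 to 14.1 CPM) all lie above those of MPP4 WT (1.62 to 5.28 CPM), while the MPP3 groups overlap.

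The sister receptor Tie1 did not show this. Tie1 (ENSMUSG00000033191, chromosome 4, 118471191 to 118490061, minus strand) stood at 19.3, 21.5, 27.1 and 29.3 CPM in MPP4 of WT mice 1 to 4 and at 15.6, 22.6, 15.9 and 15.8 CPM in MPP4 of KO mice 1 to 4. Of the KO libraries 3 lay below every WT library and the other lay within the WT range. The log2 fold change of KO against WT was −0.47 ± 0.17 in MPP4 (FDR 0.261, edgeR quasi-likelihood test with Benjamini-Hochberg adjustment) and −0.43 ± 0.17 in MPP3 (FDR 0.388). In MPP3, Tie1 stood at 86.0, 76.9, 53.6 and 67.1 CPM in WT and at 50.0, 63.7, 50.2 and 46.6 CPM in KO mice 1 to 4, and 1 KO library reached into the WT range.

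The ligand gene Angpt1 (ENSMUSG00000022309, chromosome 15, 42424723 to 42676977, minus strand) was the most abundant of the 8 per kilobase in MPP3. Its MPP4 level was tight in WT, at 193, 196, 185 and 192 CPM, and spread in KO, at 130, 135, 179 and 193 CPM in mice 1 to 4. KO mice 1 and 2, both males, were low, while of the females KO mouse 4 lay within the WT range and KO mouse 3 just below it. The log2 fold change was −0.26 ± 0.11 in MPP4 (FDR 0.321) and −0.12 ± 0.11 in MPP3 (FDR 0.772). In MPP3 the values ran from 320 to 394 CPM in WT and from 304 to 378 CPM in KO. An antisense gene, Gm17473, overlaps Angpt1 but held 73 counts over all libraries.

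Eng (ENSMUSG00000026814, chromosome 2, 32646595 to 32682669, plus strand) stood at 176, 169, 165 and 157 CPM in MPP4 of WT mice 1 to 4 and at 111, 136, 167 and 152 CPM in MPP4 of KO mice 1 to 4. KO mice 1, 2 and 4 lay below every WT library, and mouse 3 lay within the WT range. The log2 fold change was −0.23 ± 0.12 in MPP4 (FDR 0.438) and −0.18 ± 0.12 in MPP3 (FDR 0.670), where WT libraries ran from 176 to 259 CPM and KO libraries from 179 to 192 CPM. The last bases of Eng overlap Fpgs on the other strand and 3 small RNA genes lie inside it. Whether the counting used strand is not given in the sources used here, so Eng counts are uncertain to that extent.

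The adhesion gene Esam and the sialomucin gene Emcn followed. Esam (ENSMUSG00000001946, chromosome 9, 37528078 to 37538319, plus strand) stood at 10.6, 8.46, 7.28 and 9.01 CPM in MPP4 of WT mice 1 to 4 and at 5.57, 10.2, 7.33 and 7.16 CPM in MPP4 of KO mice 1 to 4. Its groups overlapped, with a log2 fold change of −0.22 ± 0.21 (FDR 0.680), and the MPP3 value was −0.15 ± 0.20 (FDR 0.860), with 39.0 to 73.3 CPM in WT and 40.2 to 51.4 CPM in KO libraries. Emcn (ENSMUSG00000054690, chromosome 3, 137341067 to 137432185, plus strand) stood at 33.3, 30.3, 30.1 and 31.7 CPM in WT and at 25.03, 22.4, 22.9 and 27.9 CPM in KO mice 1 to 4 in MPP4. All 4 KO libraries lay below all 4 WT libraries, with a log2 fold change of −0.35 ± 0.13 that did not pass the threshold (FDR 0.278). Groups that did not overlap, with KO lower, were found for 4.44% of all genes in MPP4. In MPP3 Emcn ran from 27.1 to 36.5 CPM in WT and from 21.8 to 33.4 CPM in KO, and the genotypes overlapped (−0.17 ± 0.13, FDR 0.720).

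Kdr (ENSMUSG00000062960, chromosome 5, 75932827 to 75978458, minus strand) and Cdh5 (ENSMUSG00000031871, chromosome 8, 104101625 to 104144511, plus strand) were too low to test with the others. Kdr held 3, 22, 11 and 12 counts in MPP4 of WT and 10, 0, 3 and 5 counts in MPP4 of KO mice 1 to 4. Cdh5 held 0, 0, 10 and 4 counts in MPP4 of WT and 0, 0, 0 and 2 counts in MPP4 of KO mice 1 to 4. In a fit of all genes with at least 1 count, neither gene had an FDR under 0.579 in any contrast. A change of either gene was not detectable at this depth, and neither gene showed the higher MPP4 KO counts that Tek did.

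Counted together, 0 of the 5 testable genes other than Tek were called in MPP4 KO against WT at an FDR under 0.1 by edgeR, where 0.0169% of all genes tested were called (2 of 11831). At an unadjusted p under 0.05 there were 3 of 5, namely Tie1, Angpt1 and Emcn, where 12.8% of all genes reached that level. DESeq2 called 0 of the 5, and 2.58% of all genes. All 5 estimates were below 0, as were those of 52.6% of all genes, with a median of −0.26 beside −0.01 over all genes. The 95% intervals of the 5 log2 fold changes had upper limits between −0.11 (Tie1) and 0.21 (Esam), the latter equal to a 1.16-fold higher level. Tek, at 1.89, was the single gene of the 6 with a higher MPP4 level in KO.

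In MPP3, edgeR called 0 of the 6 testable genes between KO and WT, where 0.0676% of all genes were called, and DESeq2 called 0 as well, where it called 1.82% of all genes. Tie1 alone had an unadjusted p under 0.05, a level that 10.5% of all genes reached. Tek itself differed by 0.10 ± 0.32 on the log2 scale in MPP3 (FDR 0.957), with a 95% interval from −0.58 to 0.77. That interval leaves room for a fold change between 0.670 and 1.70.

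**Figure D2:**
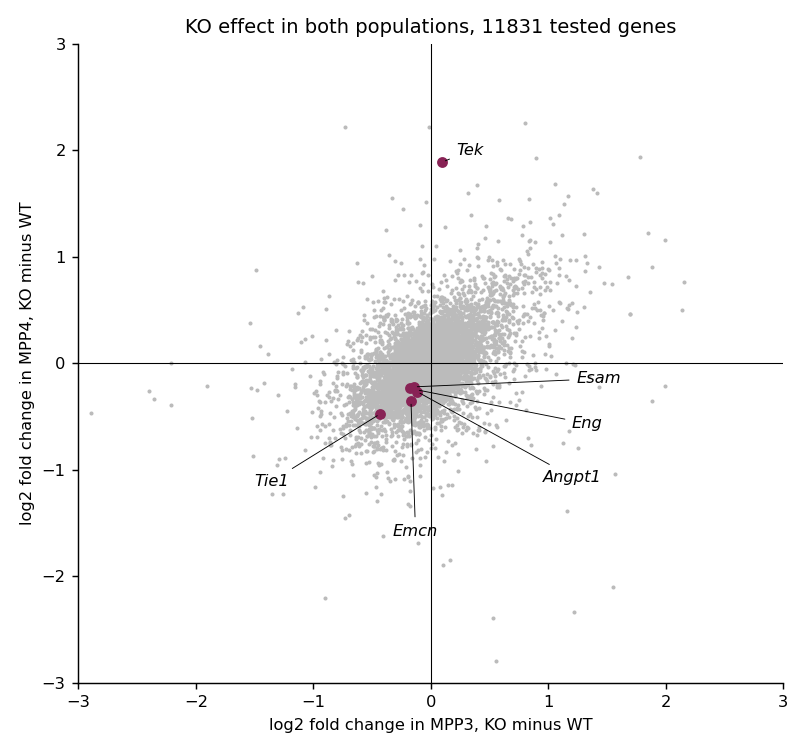
Log2 fold change of KO against WT in MPP3 (x axis) and MPP4 (y axis) for the 11831 genes tested (grey points), with the 6 genes that passed the filter in purple; 43 genes lie outside the axes of ±3. Tek lies at 0.10 and 1.89, while the other 5 lie below 0 on both axes.

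The difference between the KO effects of the populations (MPP3 minus MPP4) was −1.79 ± 0.46 for Tek on the log2 scale. For the other 5 genes it lay between 0.04 (Tie1) and 0.18 (Emcn), and 0 of the 5 were called by edgeR, DESeq2 or the fit with the mouse as a block, where these called 0%, 0.0676% and 0.0169% of all genes. None of the 5 reached an unadjusted p under 0.05 in edgeR, a level that 2.28% of all genes reached in this contrast.

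The population difference in WT mice placed most of the genes on the MPP3 side. Tek was 7.14-fold higher in MPP3 than in MPP4 of WT mice (log2 2.84 ± 0.35), with groups that did not overlap. Esam was 5.71-fold higher (2.51 ± 0.21, FDR 5.30e-07), Tie1 2.92-fold higher (1.54 ± 0.17, FDR 1.25e-05) and Angpt1 1.91-fold higher (0.94 ± 0.11, FDR 2.26e-05). These 3 of the 5 genes other than Tek were called higher in MPP3 by edgeR, where 6.8% of all genes were called in that direction, and in all 3 the groups did not overlap, as for 7.6% of all genes. Eng was 1.26-fold higher without passing the threshold (0.33 ± 0.12, FDR 0.102), and was called when mouse was a block (0.31 ± 0.09, FDR 0.0204), a fit that called 11.3% of all genes higher in MPP3, and by DESeq2 (FDR 0.0498), which called 7.58%. Emcn differed by −0.02 ± 0.13 on the log2 scale (FDR 0.955), with a 95% interval from −0.30 to 0.26.

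In KO mice the same order was seen among the other genes. Esam was 6.02-fold, Tie1 3.01-fold, Angpt1 2.12-fold and Eng 1.31-fold higher in MPP3 than in MPP4 (FDR 3.92e-07, 8.22e-06, 4.43e-06 and 0.0472). With these, 4 of the 5 genes other than Tek were called higher in MPP3, where 8.71% of all genes were. Leaving out 1 library or mouse removed the Eng call in 5 fits, namely without KO MPP3 library 3, without KO MPP4 library 1 or 2, or without KO mouse 1 or 2 (FDR 0.106 to 0.181). Emcn was not called (0.16 ± 0.13, FDR 0.529). Tek was 2.06-fold higher in MPP3 than in MPP4 of KO mice (log2 1.04 ± 0.32), against 7.14-fold in WT.

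**Figure D3:**
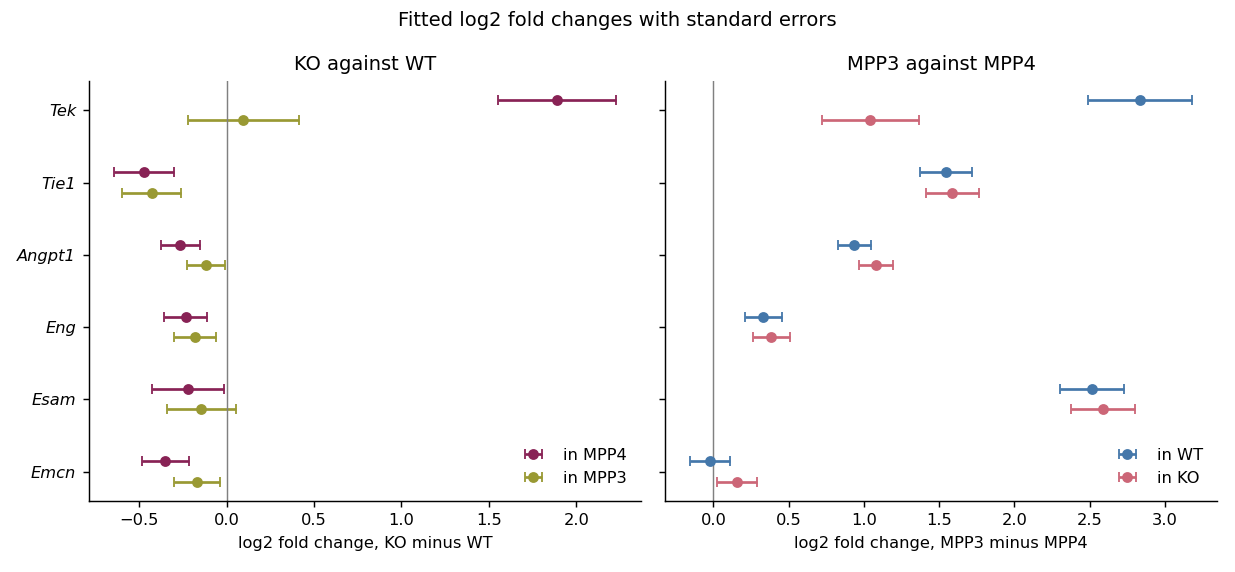
Fitted log2 fold changes (x axis, points) with standard errors (bars) of the 6 genes, for KO against WT in each population (left) and MPP3 against MPP4 in each genotype (right). On the left only Tek in MPP4 lies far above 0, at 1.89 ± 0.34; on the right, the WT and KO points of Tek (2.84 and 1.04) lie apart while those of the other genes nearly coincide.

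The same was seen mouse by mouse. In WT mice the MPP4 level of Tek was between 9.78% and 16.1% of the MPP3 level of the same mouse, and in KO mice between 33.2% and 66.8%. The mean log2 ratio of MPP3 to MPP4 was 2.95 ± 0.37 in WT and 1.04 ± 0.45 in KO (SD, n = 4 mice each), with no overlap. For Tie1 the MPP4 share ran from 22.4% to 50.6% in WT and from 31.3% to 35.5% in KO, so the KO mice lay inside the WT range. Within WT, the Tie1 share was 22.4% and 27.9% in the females and 50.6% and 43.7% in the males. For Esam it ran from 14.4% to 22.2% in WT and from 10.8% to 22.9% in KO, for Angpt1 from 47.0% to 60.3% and from 34.5% to 59.0%, and for Eng from 67.8% to 94.1% and from 62.1% to 87.1%. Emcn was close to equal in both populations, with 91.4% to 111% in WT and 75.0% to 113% in KO.

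**Figure D4:**
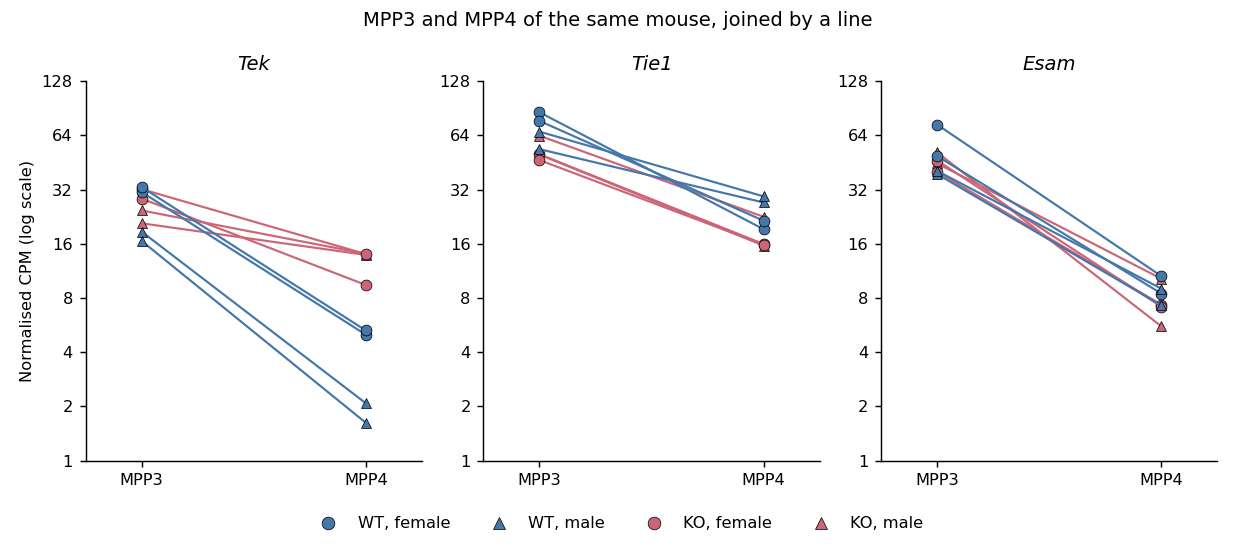
Normalised CPM (y axis, log scale) of Tek, Tie1 and Esam in MPP3 and MPP4 (x axis), with a line joining the 2 libraries of each mouse, blue for WT and red for KO, circles for females and triangles for males. The Tek lines of KO mice fall less steeply (MPP4 at 33.2% to 66.8% of MPP3) than those of WT mice (9.78% to 16.1%). For Tie1 and Esam the slopes of the genotypes overlap, and the Tie1 lines of WT females fall more steeply than those of WT males.

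Sex moved with the Tek level within WT mice. WT mice 1 and 2, both females, had 31.0 and 33.0 CPM in MPP3 and 5.003 and 5.28 CPM in MPP4, and WT mice 3 and 4, both males, had 18.7 and 16.6 CPM in MPP3 and 2.08 and 1.62 CPM in MPP4. Both females thus lay above both males in each population. In KO mice the MPP3 order was the same (means of 30.3 CPM in females and 22.6 CPM in males), but in MPP4 the means were 11.7 CPM in females and 13.97 CPM in males. A term for sex over all 16 libraries gave Tek 0.60 ± 0.18 higher in females on the log2 scale, a description since it uses the MPP4 libraries. Eng was 0.25 ± 0.06 higher in females (FDR 0.0288) and was the 1 gene called of the 5 other than Tek, where 13.3% of all genes were called. Within sexes, the log2 fold change of Tek in MPP4 of KO against WT was 1.19 in females (2.29-fold) and 2.91 in males (7.51-fold), from 2 mice per genotype each. It was above 0 in both, and the difference between the sexes was not tested. KO males were 9 and 10 weeks old and WT males 11 and 12 weeks, so genotype and age cannot be told apart in males. KO females were both 11 weeks old and WT females 11 and 12 weeks. Within KO mice, sex and age cannot be told apart either.

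The other genes were read within sexes too. In MPP4, Angpt1 was called lower in KO males (−0.50 ± 0.10, FDR 0.0759), where 1.21% of all genes were called in either direction, and stood at −0.06 ± 0.10 in females (FDR 0.904), where 0.0845% were called. In MPP3, Tie1 (−0.75 ± 0.18, FDR 0.0550) and Eng (−0.36 ± 0.10, FDR 0.0948) were called lower in KO females, where 3.41% of all genes were called in either direction, and stood at −0.09 and 0.04 in males (FDR 0.971 and 0.979), where 0.00845% were called. These fits were added after the data had been seen. In males, the ages of KO and WT mice did not overlap, so genotype and age cannot be told apart in the Angpt1 call. With age as a term over all 16 libraries, Angpt1 in MPP4 stood at −0.16 ± 0.12 (FDR 0.774). None of the 5 was called higher in KO in either sex or population.

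Genes beside Tek on chromosome 4 were read from the same fit. Within 500 kb of either end, 25 genes were annotated and 5 passed the filter: Caap1, Plaa and Ift74 before it, and Mysm1 and Jun after it. In MPP4, KO against WT, their log2 fold changes were 0.29 ± 0.45 (Caap1, an apoptosis regulator), −0.13 ± 0.07 (Plaa, a ubiquitin-binding protein), 0.09 ± 0.10 (Ift74, a subunit of the intraflagellar transport complex), −0.08 ± 0.16 (Mysm1, a histone H2A deubiquitinase) and −0.65 ± 0.92 (Jun, an AP-1 subunit). The FDR lay between 0.478 and 0.879. None of the 5 was called by edgeR between genotypes, where 0.0169% of all genes were called in MPP4 and 0.0676% in MPP3. The large error of Jun goes with a spread of 1115 ± 833 CPM over the 4 WT libraries of MPP4 and 713 ± 888 CPM over those of KO. Of the 5, Ift74, the nearest at 46.1 kb, was called in WT MPP3 against MPP4, lower in MPP3 (−0.29 ± 0.10, FDR 0.0930), where 8.33% of all genes were called lower.

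The genes with the most Tek-like profile were none of the other members. By Pearson correlation of log2(normalised CPM + 0.5) over the 16 libraries, which hold 2 populations and 8 mice, the nearest were Tcrg-C1 (r = 0.926), Ilk (0.923), BC002163 (0.908), Gm3608 (0.892) and BE692007 (0.885). Tcrg-C1, a constant region gene of the T cell receptor gamma chain with near copies elsewhere in its locus, stood at 1.05 ± 1.38 CPM in MPP4 WT and 4.81 ± 1.87 CPM in MPP4 KO, and at 7.34 ± 5.26 and 12.8 ± 3.54 CPM in MPP3 WT and KO. Ilk, integrin-linked kinase, covered a narrower range, from 5.77 ± 0.65 CPM in MPP4 WT through 7.03 ± 0.71 CPM in MPP4 KO to 8.40 ± 0.36 CPM in MPP3 WT. Among the members, r with Tek was 0.742 for Esam (rank 205 of the genes tested), 0.605 for Angpt1, 0.580 for Tie1, 0.404 for Eng and −0.213 for Emcn. The choice of Tek for its MPP4 pattern bears on all of these values, and they carry no test.

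The wider pathways were read from lists of related genes. In KO against WT, edgeR called 0 genes of every list in MPP4, in MPP3 and in the interaction: 13 tested genes of the Tie and angiopoietin pathway, 5 of the VEGF system, 16 of the endoglin (TGF-beta and BMP) pathway, 5 endothelial markers, 14 long-term stem cell markers, 14 ETS, GATA and SCL factors, 1 stromal marker, and 9 megakaryocyte and erythroid markers. Of all genes it called 0.0169% in MPP4, 0.0676% in MPP3 and 0% in the interaction. At an unadjusted p under 0.05 in MPP4 there were 6 of the Tie pathway, 3 of the VEGF system, 1 of the endoglin pathway, 6 stem cell markers, 4 ETS, GATA and SCL factors and 1 megakaryocyte and erythroid marker, where 12.8% of all genes reached that level. In MPP3 there were 1 each of the Tie, VEGF and endoglin lists, 3 stem cell markers, 2 ETS, GATA and SCL factors and 1 stromal marker, where 10.5% did. In the interaction, 1 megakaryocyte and erythroid marker reached it, Itgb3 (−1.09 ± 0.37), where 2.28% of all genes did. Itgb3 was also the 1 of its list in MPP4, where it was higher in KO (0.68 ± 0.26, FDR 0.283). The VEGF list included Sh2d2a, an adaptor gene, higher in MPP4 KO (1.36 ± 0.39, FDR 0.188). In MPP4, estimates were above 0 for 3 of the 5 tested VEGF genes and for 4 of the 9 megakaryocyte and erythroid markers.

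In MPP4, DESeq2 called 5 of 14 stem cell markers, 2 of 13 genes of the Tie pathway and 1 of 5 of the VEGF system (FDR 0.0321 to 0.0999) and 0 of the other lists, where it called 2.58% of all genes. Those given here were named after their values were seen. Of the stem cell markers, the transcription factor genes Hlf (−0.57), Meis1 (−0.34) and Mecom (−0.61) were lower in KO on the log2 scale, and Ly6a, which encodes the gate marker Sca-1, was higher (0.45). Of the Tie pathway, Foxo3, a FOXO transcription factor gene, was lower (−0.29), as was Itga5 (−0.39), and the VEGF co-receptor gene Nrp1 was higher (0.98). In MPP3, where DESeq2 called 1.82% of all genes, it called 2 of 14 stem cell markers, Ly6a (0.47) and Hlf (−0.52), and the 1 stromal marker tested, Pdgfrb (−0.54), with an FDR of 0.0394 to 0.0685, and in the interaction it called 0. The summed level of the stem cell markers was 579 to 728 CPM in MPP4 KO and 708 to 842 CPM in MPP4 WT, and in MPP3 1141 to 1259 CPM in KO and 1331 to 1494 CPM in WT. Their median log2 fold change in MPP4 was −0.30, and that of the megakaryocyte and erythroid markers −0.22, beside −0.01 for all genes. The median was −0.17 for the ETS, GATA and SCL factors and −0.08 for the Tie pathway, and the stromal marker stood at −0.16. It was above 0 for the VEGF system (0.30), the endothelial markers (0.10) and the endoglin pathway (0.04). Tek, itself counted among the genes of long-term stem cells, was higher in the same libraries, and the part of the stem cell markers in the Tek level was not tested.

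Between MPP3 and MPP4 of WT mice genes of most lists were called, where edgeR called 6.8% of all genes higher in MPP3 and 8.33% lower. Long-term stem cell markers were called higher in MPP3 in 8 of 14 and lower in 1, including Itga2b (CD41; 3.08 ± 0.25), Gata2 (1.80 ± 0.18) and Pdzk1ip1 (1.75 ± 0.15). Megakaryocyte and erythroid markers were called higher in 5 of 9, with the platelet genes Pf4 (1.73 ± 0.39), Gp1ba (1.72 ± 0.32) and Itgb3 (1.60 ± 0.26) beside Itga2b, which both lists hold. Pf4 and Gp1ba averaged 4.65 and 4.01 CPM in WT MPP3 and 1.39 and 1.21 CPM in WT MPP4. They passed the count filter only through MPP3, so their calls as higher there are not independent of the filter. Of the ETS, GATA and SCL factors, 4 of 14 were called higher and 1 lower, with Gata1 at 2.92 ± 0.51, Fli1 at 0.22 ± 0.06 and Ets1, the gene called lower, at −1.41 ± 0.20. Gata1, at 12.5 CPM in WT MPP3 and 1.65 CPM in WT MPP4, also passed the filter only through MPP3. The signalling lists were mixed. Of the Tie and angiopoietin pathway 2 of 13 were called higher (the integrin genes Itga5, 0.37 ± 0.12, and Itgb1, 0.28 ± 0.10) and 2 lower (the docking protein gene Dok2, −0.79 ± 0.13, and Pik3r1, which encodes a PI3-kinase subunit, −0.28 ± 0.08). Of the endoglin pathway 3 of 16 were called higher (Tgfbr3, 2.19 ± 0.28, Bmpr2, 0.57 ± 0.18, and Tgfbr2, 0.34 ± 0.10, all receptors) and 1 lower (the inhibitor Smad7, −1.26 ± 0.26). Of the VEGF system Sh2d2a was called lower in MPP3 (−1.88 ± 0.42), and of the endothelial markers Egfl7 was (−1.21 ± 0.14). Sh2d2a stood at 0.58 CPM in MPP3 and 2.16 CPM in MPP4 of WT. It passed the count filter only through MPP4 KO, at 5.56 CPM, so its call between KO populations is not independent of the filter. The stromal marker tested was not called. In KO mice, where 8.71% of all genes were called higher in MPP3 and 9.18% lower, 9 stem cell markers were called higher in MPP3 and 1 lower, 6 and 0 of the megakaryocyte and erythroid markers, 4 and 2 of the ETS, GATA and SCL factors, 2 and 1 of each of the Tie and endoglin lists, and 0 and 1 of each of the VEGF and endothelial lists.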

How the data were processed

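RNA-seq was analysed in 16 libraries, 4 per population and labelled genotype. Per the labels, paired-end reads were aligned to mm10 with STAR 2.7.3a and counted per gene with featureCounts 2.0.0. The raw counts deposited by the authors were the input here. Their annotation release and use of strand are not given in the sources used here. The authors' second table, of counts divided by DESeq2 (1.28.1) size factors, was not used. Symbols and positions came from GENCODE M21 (GRCm38, also called mm10), which matched 47224 of 47937 identifiers, and promoter sequences from RefSeq (GRCm38.p6).

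The filter kept the 11831 genes that averaged more than 100 counts in at least 1 group. They were tested by the quasi-likelihood method of edgeR 4.0.16 (TMM, legacy deviances, R 4.3.3) in a single model of the 16 libraries without covariates, and genes with a Benjamini-Hochberg FDR under 0.1 over all genes tested were called. Standard errors were computed as the log2 fold change over the root of F, and 95% intervals from them with the fit's degrees of freedom. The script was tested on simulated data. Alternatives used DESeq2 1.42.0, limma 3.58.1, other filters and covariates, and left out libraries or mice. The labels tie the 2 libraries of a mouse by genotype, number, sex and age. On that ground the mouse was used as a block, fixed in edgeR within mice and random in limma between genotypes. The deviations of the 2 libraries from their group means correlated in all 8 mice (r from 0.269 to 0.548). Each group holds both sexes, and different mice of the same sex were not compared. These correlations therefore cannot tell a shared mouse from shared sex. Nothing beyond the labels shows that the mice were prepared separately, so p-values measure the spread between these samples. The members, the lists and the tests were chosen with earlier results of these data known. Named genes were the 8 members, up to 4 called genes per list by smallest p, tested genes within 500 kb of Tek, and the 5 genes nearest to it by correlation. A gene that this rule names is not reported here.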

Additional observations from a re-analysis of the deposited data

Results flagged for a closer look

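Each of the 6 tested genes was checked in each of the 4 groups for a library set apart from the other 3, by the share of the group's range that lies in the gap (Dixon's test at 95%). Chance puts about 1 in 20 groups past it. Tie1 in MPP4 of KO mouse 2 was past it, high at 22.6 CPM, with a ratio of 0.957. Tek in MPP4 of KO mouse 3 was low, at 9.45 CPM, with a ratio of 0.956, which is given as a description and not as a test, since the Tek values of MPP4 chose the list. No other of the 24 groups had a library set apart by this measure. The library that was low for Tek was still above all 4 WT libraries, and the library that was high for Tie1 lay inside the WT range.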

How the results depend on the processing

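Outside the fits within a sex, the count of called genes among the 5 other than Tek was 0 in KO against WT in both populations and in the interaction, and 3 to 4 in MPP3 against MPP4 of WT and of KO, leave-out fits included. Within a sex, 1 gene was called in MPP4 of males and 2 in MPP3 of females. Tek in MPP4 of KO against WT kept its direction, from 1.65 to 2.15 when a library or mouse was left out. It was 1.19 in females alone and 2.91 in males alone, in fits added after seeing the data. KO males were younger than WT males, so genotype and age cannot be told apart in the male fit. The cause of the difference was not tested. With the mouse as a block the Tek value in MPP4 was 2.14, with sex as a term 2.04, with age 1.97 and with both 1.73. Of 974 values of single genes under an alternative (Tek between WT populations not counted), 924 kept direction and, where tested, side of the threshold, 13 gained and 5 lost a call (all Eng between populations), and 32 changed sign, none of them called. The sign changes were Tek in MPP3 KO against WT with sex and age as terms (−0.16) and the following. With 1 library left out, Tek ran from −0.056 to 0.27 and Esam from −0.25 to 0.091 in MPP3 KO against WT, Emcn from −0.11 to 0.036 between WT populations, and the interactions from −0.069 to 0.19 (Tie1), −0.046 to 0.17 (Eng) and −0.047 to 0.31 (Esam). With 1 mouse left out, the sign turned for Tek without KO mouse 4 (−0.0099), WT mouse 3 (−0.019) or WT mouse 4 (−0.056) and for Esam without WT mouse 1 (0.091) in MPP3, and for Emcn without WT mouse 3 (0.017). For the interactions it turned for Tie1 without WT mouse 3 (−0.13) or 4 (−0.085), for Eng without KO mouse 1 (−0.031) or WT mouse 3 (−0.019), and for Esam without KO mouse 1 (−0.11) or WT mouse 4 (−0.026). The mouse block gave Eng between WT populations a call (FDR 0.0204) and changed no other call. Replicate numbers shared by WT and KO name different mice, of opposite sex in every pair. Their deviations correlated between −0.464 and 0.127, values that the difference in sex keeps from being set against those within a mouse. A block on these numbers gave 1.97 for Tek in MPP4 and the same counts of calls. Depth limited Kdr and Cdh5, at 0 to 23 counts.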
